A study of Drosophila melanogaster with 36 samples.

Results

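Hi-C was compared between OSCs depleted of the linker histone H1 (H1-KD) and control OSCs (Control-KD). OSCs are a Drosophila cell line grown from the somatic cells of the ovary, and silence transposable elements (TEs) through Piwi and its piRNAs. Hi-C records contacts of chromatin by joining restriction fragments that were crosslinked to one another and sequencing the junctions. The comparison was chosen by its labels and rests on 4 of the 36 samples of the series, 2 of H1-KD and 2 of Control-KD. Both groups were OSCs that received siRNA, against H1 in H1-KD and against EGFP in Control-KD, which is the control that the H1 and the Egg experiments share. The labels do not give the time between siRNA and harvest for these samples. The authors merged the 2 replicates of each group before depositing 1 contact matrix per group, so a group is 1 value, there is no spread between replicates, and p-values cannot be computed. The study has 3 further Control-KD matrices, from its Piwi, Nxf2 and HP1a experiments, 6 samples in all. The labels of the HP1a experiment give 2 days of knockdown, and those of the Piwi and Nxf2 experiments give no time. All 3 matrices are used as a yardstick. Taken 2 at a time, the 4 Control-KD matrices make 6 pairs. The control-pair spread is the root mean square of their 6 differences, and the largest of the 6 in size is given beside it. Hi-C does not measure the level of H1, so the depletion itself could not be checked in these data.

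H1 binds the nucleosome where DNA enters and leaves it, and is known to favour compact chromatin in test tubes and in cells. In Drosophila somatic cells it is made from repeated copies of the His1 gene inside the histone gene cluster. The annotation used here lists 23 His1 genes, all on chromosome arm 2L. In OSCs, H1 is known as a factor through which Piwi–piRNA complexes keep target TEs closed. Chromosomes in Hi-C maps are divided into topologically associating domains (TADs), stretches whose parts touch each other more than they touch the neighbouring stretch, and the positions where contact drops are their boundaries. The strands of the siRNA that defines H1-KD are shown because the siRNA is the only difference in treatment between the groups that the labels give. Capitals mark the 19 bases that pair with each other, and small letters the overhang.
siH1-sense: GAAAGAUCCAGAUGCACCCtt
siH1-antisense: GGGUGCAUCUGGAUCUUUCtt

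The deposited values cover the 5 arms X, 2L, 2R, 3L and 3R in 2977 bins of 40 kb, of which 2951 were kept by the authors in both matrices. They are corrected contact signals, scaled to give all bins in a matrix equal totals, and not counts. Whole contacts could be recovered from them, and numbered 25463370 in H1-KD and 31120409 in Control-KD, against 31691817 to 72450303 in the other Control-KD matrices. Within arms, H1-KD held 21459216 contacts and Control-KD 26347271. In the values used below, the H1-KD matrix was scaled to the within-arm total of Control-KD. Because ICE, the correction the authors used, fixes the total of each bin, a bin that loses contacts at one distance must gain them elsewhere in the corrected matrix. The change on recovered contacts, which are not tied in this way, is therefore given where it differs.

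Upon H1-KD, contacts between distant parts of the same arm became more frequent. At 10 Mb the mean contact value was 5.21 in H1-KD and 4.36 in Control-KD. In the Control-KD of the Piwi, Nxf2 and HP1a series it was 4.21, 4.68 and 4.60, so H1-KD lay above all 4. The log2 ratio at 10 Mb was 0.26. The control-pair spread there was 0.10, and the largest control pair 0.16. It rested on 9001 contacts in H1-KD and 9393 in Control-KD, for a counting error of 0.021. Against the other controls the ratio was 0.31 (Piwi series), 0.18 (HP1a series) and 0.15 (Nxf2 series), the last of these just under the largest control pair.

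The rise at 10 Mb was found on each arm. On X the value was 5.47 in Control-KD and 6.12 in H1-KD (log2 ratio 0.16, largest control pair 0.14). Arm 2L rose from 3.09 to 3.66 (0.25 against 0.17) and 2R from 4.76 to 5.53 (0.22 against 0.072). The value on 3L went from 4.15 to 5.40, which at 0.38 against 0.22 was the largest ratio of the 5 arms, and on 3R from 4.43 to 5.34 (0.27 against 0.18). X had the smallest rise. The rise on all 5 arms passed the largest control pair of its arm when the Piwi series was the control. Against the Nxf2 series it was 0.069 on X, 0.17 on 2L and 0.13 on 3R, each short of that pair. Against the HP1a series X (0.11), 3L (0.22) and 3R (0.18) did not pass it, the latter pair being equal to it after rounding.

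The share of within-arm contact value held by pairs over 8 Mb apart was 8.61% in H1-KD and 6.93% in Control-KD. It lay between 6.58% and 7.42% in the other Control-KD matrices. Pairs 40 to 400 kb apart held 50.9% and 53.1%, and the log2 ratio of these shares, -0.060, was within the largest control pair of 0.075. The profile over all distances crossed the range of the control pairs at 7.68 Mb, with a log2 ratio of 0.16, and reached 0.44 at 16.0 Mb. A measure that moves with ligation between unrelated fragments is the share of recovered contacts that joined different arms. It was 15.7% in H1-KD, 15.3% in Control-KD and 16.3% to 18.1% in the other Control-KD matrices. Whether such ligation contributed to the rise was not tested.

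**Figure D1:**
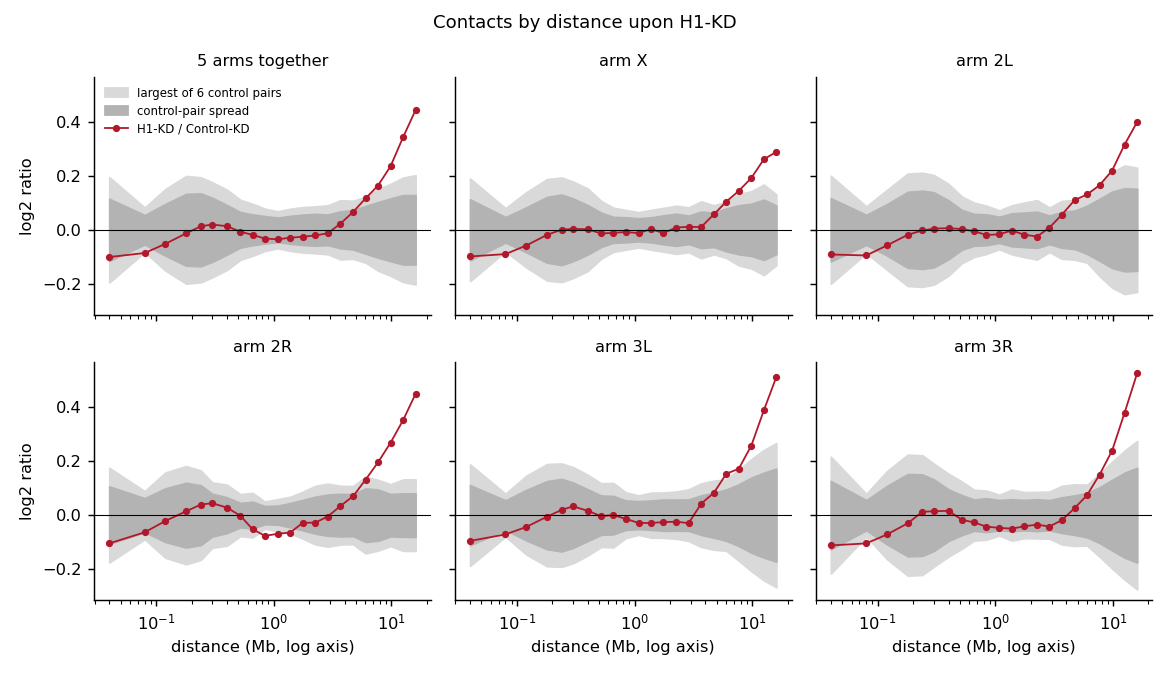
Log2 ratio of mean contact value, H1-KD over Control-KD, by distance on a log axis, for the 5 arms together and each arm, with the control-pair spread (dark band) and the largest control pair (light band). The line leaves both bands upwards at distances near 10 Mb on every arm and stays inside the light band at most shorter distances, apart from 80 kb and, on 2R, about 1 Mb.

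At 40 kb to 4 Mb the ratios to Control-KD were smaller in size than at 10 Mb, and several depended on the control used. At 40 kb the value fell from 1226 in Control-KD to 1144 in H1-KD, a log2 ratio of -0.10 that a control pair exceeded at 0.20. At 80 kb it went from 594 to 560, and the ratio of -0.086 passed the largest control pair of 0.082 by little. This fall depends on the control: the H1-KD value of 560 stood beside 586 in the Piwi, 568 in the Nxf2 and 561 in the HP1a series, and the ratio with the HP1a series was -0.0023. The values at 80 kb passed the largest control pair on X (-0.090), 2L (-0.095) and 3R (-0.10) and not on 2R (-0.063) or 3L (-0.071). At 200 kb, 400 kb, 2 Mb and 4 Mb the ratios over all arms were -0.00092, 0.016, -0.017 and 0.025, each under the control-pair spread of its distance. The value at 2 Mb rests on a Control-KD that lay below the 3 other controls there. Against each of these the ratio at 2 Mb was -0.11, past the largest control pair of 0.090, and the spread of 0.063 was 0.0014 among these 3 alone. At 200 kb the Nxf2 series gave 0.205, where the largest control pair was 0.204. At 1 Mb the ratio was -0.039 over all arms and -0.071 on 2R, where the largest control pair was 0.058. Over all arms at 1 Mb it was -0.077, -0.037 and -0.10 with the Piwi, Nxf2 and HP1a series as controls, and the largest control pair was 0.066.

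Long-range contacts rose in the interior of the arms as well as at their ends. Here the 2 Mb at the centromere end of each arm in the files are called pericentromeric, the 1 Mb at the other end telomeric, and the rest interior. Among bin pairs of one arm over 10 Mb apart, pairs of interior bins rose from 2.70 to 3.46, which is 0.36 on the log2 scale where the largest control pair was 0.20. Pericentromeric bins paired with interior bins went from 1.73 to 2.48, a ratio of 0.52 against 0.16. Pericentromeric bins paired with the telomeric bins of their own arm rose from 1.03 to 1.53 (0.57 against 0.15). The last ratio was 1.03 on 3L, where the value went from 0.641 to 1.31, and between 0.59 and 0.71 on 2R, 3R and 2L. On X it was 0.24, under the largest control pair of 0.36. Without pericentromeric bins the log2 ratio at 10 Mb was 0.24.

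Boundaries of TADs were the second place of change. Insulation was measured at each bin start as log2 of the mean contact value in a square of 200 kb on either side, relative to the mean of the arm, so that a low value marks a position that few contacts cross. With boundaries called from the Control-KD matrix, 222 of 225 had a value. Their mean insulation was -0.74 in Control-KD and -0.61 in H1-KD. It was -0.71, -0.74 and -0.71 in the Control-KD of the Piwi, Nxf2 and HP1a series. The 4 Control-KD matrices lay close together, and H1-KD lay above all of them. The mean change was 0.13 (SD across boundaries 0.097), while the control-pair spread was 0.026 and the largest control pair 0.034. Relative to the mean of the arm, more contacts thus crossed the boundaries in H1-KD, at 203 of 222 boundaries (91.4%). In the control pairs, 17.1% to 67.9% of the same boundaries rose. The order within a control pair is arbitrary, so a low share also marks a move of most boundaries in one direction. On 3R the lowest share in a control pair was 7.55%, where 90.6% rose upon H1-KD. A move of most boundaries in one direction was thus not particular to H1-KD. The rise exceeded all 6 control pairs at 160 boundaries, and a fall did so at 5.

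The rise was of one size on the 5 arms, with means of 0.14 on X, 0.13 on 2L, 0.13 on 2R, 0.12 on 3L and 0.14 on 3R, each beyond the largest control pair of its arm (0.031 to 0.044). Boundaries called from the Control-KD of the Piwi series, which is in neither matrix compared, gave 0.13 over 222 boundaries. Recovered contacts gave 0.12. Away from boundaries the change was small: the mean was -0.011 at 1346 bin starts 160 kb or more from a boundary, within the largest control pair of 0.016. Over all 2884 bin starts it was 0.025, past the largest control pair of 0.0097. Ordered by insulation in the Piwi series Control-KD, the 56 strongest boundaries had a mean change of 0.15, and the 55 weakest 0.080, with a largest control pair of 0.055 in the weakest. Insulation rose at 53 of the 56 strongest and at 44 of the 55 weakest.

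**Figure D2:**
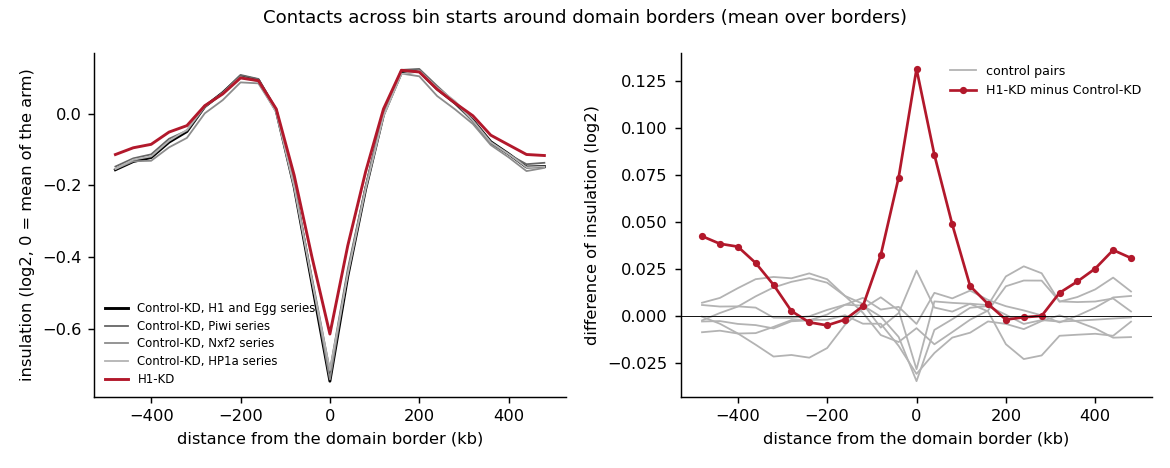
Left, mean insulation (log2, 0 is the mean of the arm) against distance from TAD boundaries of the Piwi series Control-KD in kb, for H1-KD and the 4 Control-KD matrices. Right, H1-KD minus Control-KD and the 6 control pairs. The H1-KD line lies above the controls at the boundary, where the difference reaches 0.13, and falls to 0.016 or less at 120 kb on both sides. Further out the difference rises again, to 0.042 at -480 kb and 0.031 at 480 kb.

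The same pattern appeared when contacts within and across TADs were set side by side at equal distance, which takes the decay with distance out of the comparison. The Piwi series Control-KD gave 220 TADs with a median length of 480 kb. At 80 kb, pairs of bins inside one TAD went from 644 in Control-KD to 598 in H1-KD, a log2 ratio of -0.11. Pairs across a boundary went from 312 to 335, a log2 ratio of 0.10. The difference between these ratios was 0.21, against a largest control pair of 0.10. At 120 kb the difference was 0.20, where the control pairs reached 0.039, and at 160 kb it was 0.18 against 0.088. It was 0.16 at 200 kb against 0.12, and 0.137 at 240 kb against 0.134. At 40 kb, with 0.11 against 0.16, and from 280 to 400 kb it lay under the largest control pair. At 120 kb the Piwi, Nxf2 and HP1a series as controls gave 0.18, 0.18 and 0.16, and the difference was 0.20 on recovered contacts. At 200 kb the Nxf2 and HP1a series gave 0.038 and 0.106, both under the largest control pair. At 240 kb the Piwi, Nxf2 and HP1a series gave 0.102, 0.0015 and 0.096, each under it. The ratio of pairs across TADs alone did not pass the largest control pair at any of the 10 distances, and that of pairs inside TADs did so at 80 kb alone, so the contrast between them is what stands apart.

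**Figure D3:**
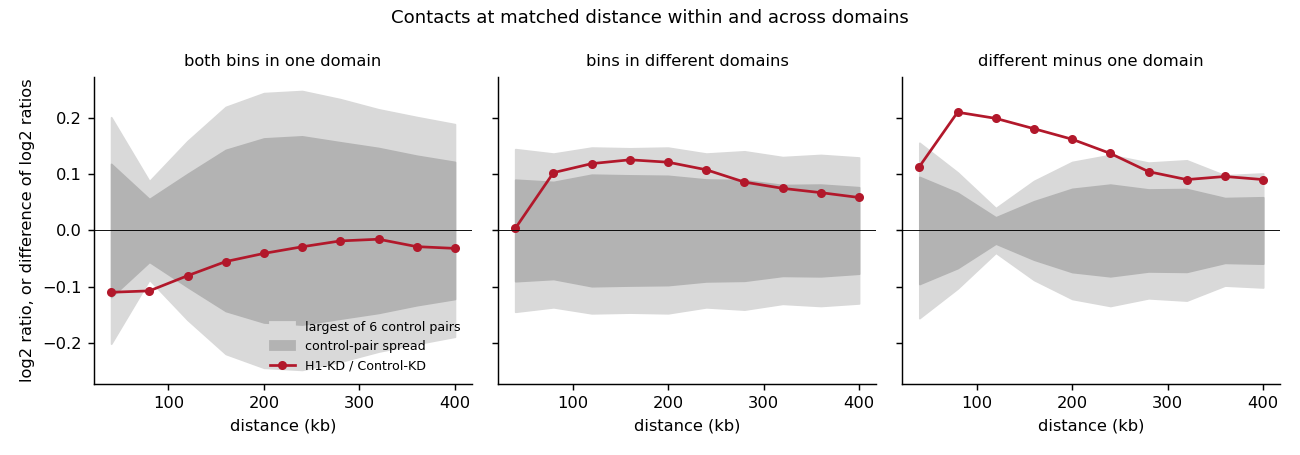
Log2 ratio of contact value, H1-KD over Control-KD, against distance in kb, for bin pairs inside one TAD, for pairs in different TADs, and the difference of the 2 ratios. Dark and light bands are the control-pair spread and the largest control pair. The difference lies above the light band from 80 to 240 kb, with 0.21 at 80 kb and 0.16 at 200 kb.

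The positions of boundaries changed less than their strength. H1-KD had 220 boundaries and Control-KD 225, and 203 of those of H1-KD (92.3%) lay within 1 bin of one of Control-KD. Specific to H1-KD were 17, and specific to Control-KD 22. The share found again between pairs of Control-KD matrices ranged from 87.1% to 94.7%, so the boundary sets of H1-KD and Control-KD differed no more than those of the control pairs. With the Piwi, Nxf2 and HP1a series, however, H1-KD shared fewer boundaries than Control-KD did. The shares were 89.1%, 87.3% and 87.7% for H1-KD, and 94.2%, 92.0% and 94.7% for Control-KD. Of the boundaries taken one by one, 2R 1560001 (pericentromeric) had the largest rise, from -0.68 in Control-KD to -0.20 in H1-KD. The change of 0.48 compares with a largest control pair of 0.044 and a counting error of 0.024, and was 0.29 on recovered contacts. Next came 2L 10200001, from -1.23 to -0.88, and X 17040001, from -0.82 to -0.48, with changes of 0.35 and 0.34. The change was within 0.27 and 0.48 for these 3 with each of the other Control-KD matrices. The boundary at 2L 10200001 was not called in H1-KD, while the other 2 were. Insulation fell most at 3R 24160001, from 0.0031 to -0.29, at 2L 18160001, from -0.52 to -0.70, and at 3L 5160001, from -0.16 to -0.34. The changes were -0.29, -0.18 and -0.18 where the largest control pairs were 0.15, 0.082 and 0.098. On recovered contacts they were -0.152, -0.12 and -0.13, and the first of these is under its largest control pair of 0.154. All 3 were also called in H1-KD.

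Short-range contacts of individual bins changed in both directions. Contacts at 40 to 400 kb were summed for each bin, the log2 ratio of the sums was taken, the median of its arm was subtracted, and 0.15 in size was taken as the limit. Upon H1-KD, 136 bins lost contacts past it (4.61% of 2951 bins) and 108 gained them (3.66%). The SD of the change across bins was 0.089, against 0.026 to 0.075 in the control pairs, and the pairs had 0 to 83 losses and 1 to 35 gains. Of the 136 losses, 129 exceeded all 6 control pairs in the same bin, and of the 108 gains, 104 did. Of all 2951 bins, 1339 did so, and as the called bins were chosen for their size, their higher share follows from the choice. The values next to the limit were -0.15 on either side for losses and 0.15 for gains, so the limit divides a continuous range. Without subtraction of the arm median there were 347 losses and 14 gains, since the medians of the arms lay below 0.

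The called bins were also compared with other controls. All of these comparisons share the H1-KD matrix on which the bins were chosen, so agreement in direction is largely fixed by that choice. All 136 losses were negative with the Piwi and the HP1a series as control and 135 with the Nxf2 series, and 78, 110 and 123 of them passed the limit. The gains were positive in all bins with a value in each of the 3, and 45, 62 and 82 passed the limit. On recovered contacts, however, losses and gains were not of equal weight: 108 of the 136 losses were still negative and 18 passed the limit, with a median of -0.073, while 103 of the 108 gains were positive and 51 passed it, with a median of 0.14.

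Losses lay next to each other more than gains did. The 136 losses formed 78 regions, the longest of 440 kb, and 61.0% had a neighbouring loss. The 108 gains formed 87 regions, the longest of 120 kb, and 36.1% had a neighbouring gain. X had 44 losses among 553 bins (7.96%) and 23 gains. The other arms had 18 losses and 24 gains on 2L, 27 and 14 on 2R, 19 and 18 on 3L, and 28 and 29 on 3R.

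**Figure D4:**
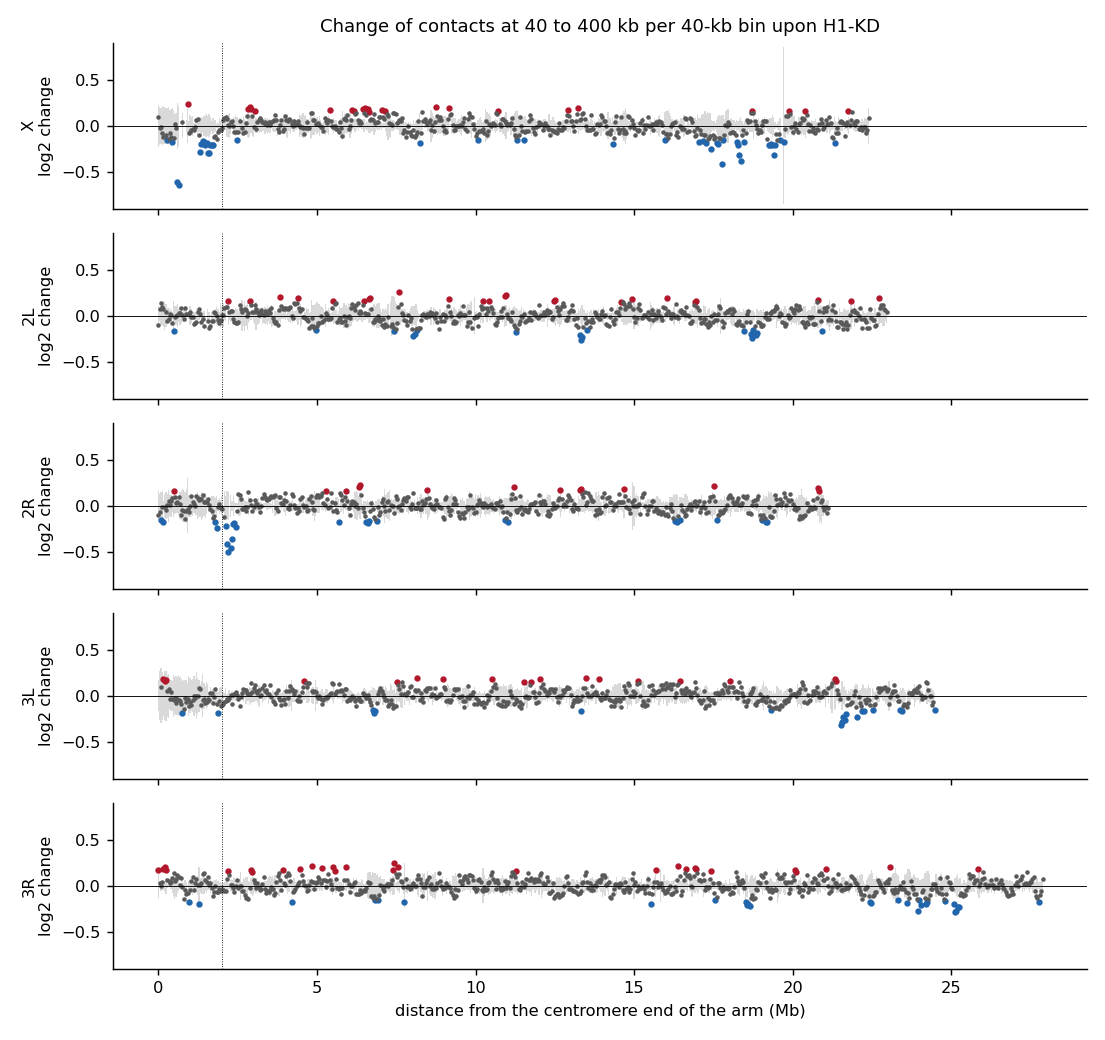
Change of contacts at 40 to 400 kb (log2, arm median subtracted) per bin, against distance in Mb from the centromere end of each arm. Blue points are losses and red points gains past 0.15, grey points all other bins, and grey bars the largest control pair of each bin. The dotted line marks 2 Mb. The lowest points are on X inside 2 Mb and on 2R just outside it, and the highest gain is 0.26.

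The largest losses lay near bins that the authors had removed. In X 21760001 to 21800000, a pericentromeric bin, the summed value at 40 to 400 kb was 3337 in Control-KD and 2065 in H1-KD. The change was -0.65, where the largest control pair was 0.22 and the counting error 0.045. With the Control-KD of the Piwi, Nxf2 and HP1a series it was -0.44, -0.56 and -0.67, and on recovered contacts -0.46. Of the bins within 400 kb, 5 had been removed in at least one of the matrices. On 2R, 2 regions of loss lay next to each other, led by 2R 2200001 (from 7158 to 4936, a change of -0.50) and 2R 2280001 (from 4087 to 2894, -0.46). The largest control pairs there were 0.15 and 0.12, and 2 bins within 400 kb of each had been removed. These losses lie just outside the 2 Mb counted as pericentromeric, and were -0.30 and -0.20 on recovered contacts.

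The next losses lay in the interior of X. In X 4640001 the value went from 6900 to 5032, a change of -0.41, but on recovered contacts it rose by 0.29, and the coverage of this bin rose by 0.58 (log2) relative to the median bin. X 4040001 went from 6682 to 4971 (-0.38), and on recovered contacts its change was -0.043, so most of the fall in these 2 bins is seen after correction. On the other arms the strongest losses were 3L 3000001, from 7150 to 5563 (-0.32), 3R 25120001, from 7189 to 5632 (-0.28), and 2L 9640001, from 5683 to 4588 (-0.26). On recovered contacts they were -0.12, -0.15 and -0.056. In each of these 3 bins the change exceeded the largest control pair (0.064 to 0.080) and was between -0.17 and -0.32 with the other Control-KD matrices.

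Gains were smaller than losses. The largest, in 2L 15360001, went from 4746 to 5490, a change of 0.26 where the largest control pair was 0.10, and was -0.024 on recovered contacts. Next was 3R 7440001, from 3979 to 4488 (0.24, largest control pair 0.094), which was 0.23 on recovered contacts and lay at a boundary. X 21480001, a pericentromeric bin with 5 removed bins within 400 kb, went from 3385 to 3848. Its change of 0.23 had a control pair of 0.18 beside it, was 0.057 with the Piwi series Control-KD and was -0.059 on recovered contacts. 2R 6360001 (0.22), 2L 12000001 (0.22) and 3L 11040001 (0.20) had changes of 0.19, 0.27 and 0.19 on recovered contacts, and the first 2 lay at boundaries.

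Losses and gains fell in different parts of TADs. The Piwi series Control-KD, which is in neither matrix, was used to describe them, and the values are a description with no test. Of the gains, 65 of 108 (60.2%) lay within 40 kb of a boundary, of the losses 24 of 136 (17.6%), and of all bins 30.3%. Of the losses, 69 (50.7%) lay 160 kb or more away, and of all bins 40.8%. The median insulation was 0.28 in losses, -0.67 in gains and -0.099 in the bins that were not called. The median contact density at 40 to 400 kb, observed over expected, was 1.11 in losses, 0.83 in gains and 0.94 in the rest. Losses therefore lay in the dense parts of TADs and gains where contacts are sparse. Losses also had fewer contacts behind them, with a median of 12641 recovered contacts per bin in Control-KD against 19302 in the rest and 22550.5 in gains.

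In the corrected values, bins that lost short-range contacts gained contacts further away. As the correction fixes the total of each bin, a gain at some other distance is required by it. Changes with other arms and at 2 to 10 Mb were not computed on recovered contacts. In losses the median change of contacts with other arms was 0.26, and it was positive in 134 of 136 bins, against 2149 of all 2951 bins. In gains it was -0.074, positive in 19 of 108. In the rest it was 0.076. At 2 to 10 Mb the medians were 0.18 in losses, -0.091 in gains and -0.00059 in the rest. Coverage, the total of recovered contacts of a bin, was taken relative to the median bin, since H1-KD held fewer contacts in all. On this relative scale its median log2 change was 0.12 in losses and -0.020 in gains. Across 2951 bins Spearman's rho between the short-range change and the between-arm change was -0.73, a description, since both come from one pair of matrices in which the totals of bins are fixed.

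The change of pericentromeric bins as a class depended on the control. The median change was -0.023 over 239 pericentromeric bins and 0.0012 over 2588 interior bins, and the difference of -0.025 lay under the control-pair spread of the pericentromeric median, 0.039. Against the Nxf2 series this median was -0.079, past the largest control pair of 0.064, and against the Piwi and HP1a series -0.0095 and -0.039. The spread of the difference itself was 0.042, and 0.020 when the Nxf2 series was left out of the yardstick, which is under the difference. Of the pericentromeric bins, 24 were losses (10.0%) and 9 gains (3.77%), while in the interior 4.25% were losses. In a control pair up to 23.0% of pericentromeric bins passed the limit in either direction. The arms differed among themselves. On X the pericentromeric median was -0.11, against a largest control pair of 0.099. Of its 45 bins, 15 were called as losses (33.3%) and 1 as a gain (2.22%). In a control pair up to 31.1% of these bins passed the limit in either direction. With the Control-KD of the Piwi, Nxf2 and HP1a series the X median was -0.069, -0.19 and -0.13, and on recovered contacts -0.077. The Piwi series value was within the largest control pair. On 3R the median was 0.029, against a largest control pair of 0.028, with 2 losses and 4 gains among 50 bins. On 2L, 2R and 3L the medians were -0.0018, 0.011 and -0.036, each within the control pairs. Telomeric bins had a median of 0.0028, with 2 losses and 4 gains among 124.

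The X pericentromere also showed the opposite change at greater distance. Within it, contacts at 40 to 400 kb fell from 450 to 402 (log2 ratio -0.16, largest control pair 0.074) and those at 440 kb to 2 Mb rose from 45.8 to 51.7 (0.173, largest control pair 0.167). On 2R, pericentromeric contacts at 440 kb to 2 Mb fell from 85.5 to 75.03, a ratio of -0.19 against 0.081, and on 2L from 51.7 to 48.0, -0.11 against 0.053. The pericentromeres of X and of 2R and 2L thus moved in opposite directions at this distance.

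Contacts between arms as a whole were within the range of the controls. Their mean value was 1.14 in H1-KD and 1.08 in Control-KD. The log2 ratio of 0.080 lay inside the control-pair spread, 0.20. In the Piwi, Nxf2 and HP1a series it was 1.20, 1.36 and 1.14, and the ratios with them were -0.066, -0.25 and -0.0027, so the direction depends on the control. Each of the 10 arm pairs stayed under the largest control pair. X with 2L, 2R, 3L and 3R had ratios of 0.090, 0.077, 0.088 and 0.11. The arms of chromosome 2 and those of chromosome 3 had -0.012 and -0.014. 2L with 3L had 0.097, 2R with 3L 0.13 and 2R with 3R 0.10, and 2L with 3R, at 0.19, had the largest.

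Relative to all contacts between arms, some pairs stood apart. 2L with 3R was higher by 0.11, where the largest control pair was 0.079, and by 0.18, 0.19 and 0.11 with the Control-KD of the Piwi, Nxf2 and HP1a series. This pair was already high in Control-KD, at 1.40. Arms 3L and 3R of one chromosome had 1.46 there, and the next pair of different chromosomes, X with 2R, 1.06. Why 2L with 3R was high was not tested. Telomeric bins of different arms were lower by 0.21 (value 4.97 in Control-KD and 4.53 in H1-KD), where the largest control pair was 0.10. They were lower with those 3 controls too, at -0.11, -0.12 and -0.21. The arms of chromosome 2, at -0.091 against 0.084, were lower with the 3 controls by 0.020, 0.016 and 0.10. Pericentromeric bins of different arms had 3.37 in Control-KD and 3.298 in H1-KD. Relative to all contacts between arms their change was -0.11, past the spread of 0.088 but under the largest control pair of 0.14. With the 3 other controls it was -0.092, 0.0077 and -0.13. Not taken relative, the log2 ratio was -0.032 with a spread of 0.12. Pericentromeric bins were higher with the interior of other arms by 0.16, where the largest control pair was 0.13, and by 0.050, 0.076 and 0.18 with the 3 other controls. Between pericentromeric and telomeric bins of different arms the value went from 0.489 to 0.711. Relative to all contacts between arms this was higher by 0.46, where the largest control pair was 0.31, and by 0.19, 0.39 and 0.51 against the Piwi, Nxf2 and HP1a series. Not taken relative, the ratio was 0.54 with a largest control pair of 0.42, and 0.12, 0.14 and 0.51 against those series.

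**Figure D5:**
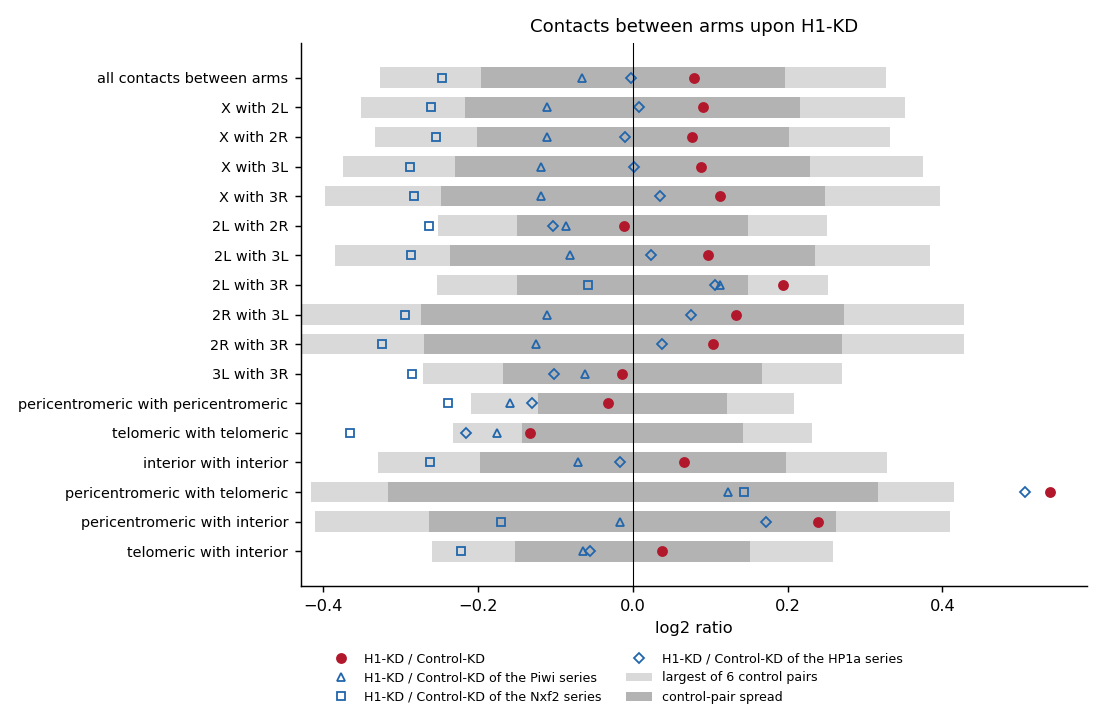
Log2 ratio of contact value between arms, H1-KD over Control-KD (filled) and over the Control-KD of the Piwi, Nxf2 and HP1a series (open), for all contacts, the 10 arm pairs and the classes of chromosome ends, with the control-pair spread (dark) and the largest control pair (light). The filled points lie within the light bars except for pericentromeric with telomeric bins at 0.54.

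The loci that the study probed by FISH were looked up. The bin of the piRNA target probe, 2L 400001, changed by -0.043, where the largest control pair was 0.025, and by 0.090 on recovered contacts. The bins of the TAD probes, 3L 17520001 and 3L 17920001, changed by 0.084 and 0.013, with largest control pairs of 0.082 and 0.027. On recovered contacts they changed by 0.16 and 0.020, and against the Nxf2 series by 0.16 and 0.038. The contact value between the TAD probes, 400 kb apart, was 72.3 in H1-KD and 88.3 in Control-KD. It was 72.7, 79.1 and 80.8 in the Control-KD of the Piwi, Nxf2 and HP1a series, so H1-KD was below all 4 but near the Piwi series value. The ratio of -0.29 rested on 148 and 220 contacts, for a counting error of 0.15, and a control pair reached 0.28.

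Beside the other knockdowns, each set against its own Control-KD and the boundaries of that control, the mean insulation change at boundaries was 0.13 upon H1-KD, -0.042 upon Egg-KD, -0.022 upon HP1a-KD, 0.015 upon Nxf2-KD and 0.00068 upon Piwi-KD. Egg-KD and H1-KD share a Control-KD. HP1a-KD and its Control-KD were labelled as 2 days of knockdown. The difference between pairs across and inside TADs at 120 kb was 0.20, -0.068, -0.068, 0.015 and 0.0018 in the same order. The log2 ratio at 10 Mb was 0.26, 0.16, -0.10, 0.13 and 0.16, so a rise at this distance was not seen upon H1-KD alone. Bins with a loss of short-range contacts numbered 136, 101, 152, 82 and 69 in this order, and bins with a gain 108, 10, 109, 2 and 1. The SD across bins was 0.089 upon H1-KD and 0.090 upon HP1a-KD. Changes of bins in both directions were thus not seen upon H1-KD alone. None of these differences between knockdowns was tested, as each is 1 value.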

How the data were processed

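Hi-C libraries of OSCs were cut with HindIII. The authors mapped reads to dm3, counted contacts of 40-kb bins with HiCExplorer, merged the 2 replicates, removed bins of low or high coverage, applied ICE correction and brought matrices that were to be compared to one scale. What was deposited is therefore a contact signal and not counts. Dividing values by the factors of their bins gave recovered contacts: 100% of those under 50 came out whole, with a tolerance of 0.01. Counting error is the standard error of a log2 ratio of recovered contacts. Bins kept in both matrices were used, and H1-KD was scaled to the within-arm total without the diagonal. Boundaries were called by a separation score (windows between 120 and 400 kb, delta 0.01, spacing 160 kb, FDR 0.01), and shared means within 1 bin. Insulation needed 80% of its square filled. The functions for decay with distance, change per bin and insulation were tested on simulated data. Those for contacts between arms and at matched distance were not. Named are the 5 regions of largest loss and of largest gain, the strongest of each arm, the 3 boundaries of largest rise and of largest fall, and the bins of the FISH probes. The regions, lists and limits were chosen with earlier results of these data known. The siRNA strands were taken from the study's oligonucleotide list. Gene positions were not used here, since the annotation at hand was of another build. Alternatives were other Control-KD matrices, scalings, distance ranges, limits, widths, windows and recovered contacts. Scripts ran in Python 3.11.15 with matplotlib 3.10.9, pandas 2.3.3, SciPy 1.17.1 and NumPy 2.4.6.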

Additional observations from a re-analysis of the deposited data

Results flagged for a closer look

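In 8 of 77 sets of 4 Control-KD values, 1 matrix lay far from the other 3. Chance flags about 1 in 20 of independent sets, but these are not independent, since the arms repeat the same matrices, so the count cannot be read against that rate. At 200 kb this was the Nxf2 series Control-KD, with a mean contact value of 162 over all arms where the nearest other was 185. It was 166 on X, 168 on 2L, 154 on 2R, 168 on 3L and 156 on 3R. At 2 Mb it was the Control-KD that H1-KD is compared with, at 17.2 over all arms where the nearest other was 18.2, and 16.5 on 3L.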

How the results depend on the processing

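No paired analysis was possible because the replicates were merged before deposition. Of 81 alternatives to the main results, 53 stayed the same and 28 moved. The same means within the control-pair spread of the main value, or for counts within 1.5 times of it. It does not mean the same sign: contacts between arms had 0.080 in the main setting and -0.066 with the Piwi series. With the Control-KD of the Nxf2 and HP1a series the ratio at 80 kb was -0.020 and -0.0023, and at 10 Mb it was 0.15 with the Nxf2 series. Losses numbered 315 and gains 201 with the Nxf2 series, 365 and 253 at 80 to 400 kb, 347 and 14 without centring, 347 and 345 at a limit of 0.10, 49 and 15 at 0.20, and 643 and 696 when any size past all control pairs counted. Losses numbered 348 on observed over expected values, and gains 56 at 40 to 800 kb. The pericentromeric minus interior difference was -0.084 with the Nxf2 series and -0.071 at 80 to 400 kb. The insulation change was 0.10 with the Piwi and 0.10 with the HP1a series, and 0.089 with a window of 400 kb. Boundaries specific to H1-KD numbered 28 with the Nxf2 series, 27 with the HP1a series and 41 in the same bin. Contacts between arms had -0.25 with the Nxf2 series, and centromere ends -0.16 and -0.24 with the Piwi and Nxf2 series. On recovered contacts 3 named bins reversed: X 4640001 (0.29), 2L 15360001 (-0.024) and X 21480001 (-0.059). The cause was not tested. Leaving 1 Control-KD matrix out of the yardstick changed the spread over 1.5 times in 23 of 136 cases. Leaving out boundaries near bins kept in 1 matrix alone, the matched-distance comparison and contacts over 10 Mb were added after the data had been seen. Replicate error cannot be given, and 148 contacts limit the FISH probe pair.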
